A study of Mus musculus with 6 samples.

Results

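The genes followed here in liver RNA are 8 that are known to respond to glucocorticoids: Fkbp5, Zbtb16, Tsc22d3, Sgk1, Klf9, Mt1, Mt2 and Cdkn1a. Each was selected by its gene symbol, which matched 1 row of the deposited tables, so 8 of 55487 listed genes are described. The list was chosen from knowledge of this response with earlier results of the same comparison in view. Mutant against control values of these 8 genes are therefore given as a description, without p-values. The 3 control libraries carry the genotype label Alb cre +/-, that is, Cre driven by the promoter of albumin, a gene of hepatocytes. The 3 mutant libraries carry RXRa f/f Alb cre+/-, and the design text names the S65A form of Rxra. All 6 come from livers of male C57/Bl6J mice fed a high-fat diet (HFD). Age, time of collection and corticosterone level are not given in the labels, and the titles name the controls WT and the mutants Cre. Whether each library is a separate animal is not stated in words, so a p-value here reflects only library-to-library spread, which may be technical.

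Glucocorticoids are adrenal steroids that rise with stress, fasting and the daily rhythm. They bind the glucocorticoid receptor, the product of Nr3c1, which waits in the cytoplasm in a complex with HSP90 and its partner proteins, then enters the nucleus and binds paired DNA half-sites at target genes. In liver the receptor is known for inducing enzymes of gluconeogenesis and amino acid breakdown. RXRα, the product of Rxra, is the dimer partner of many other nuclear receptors, but not of the glucocorticoid receptor. Fkbp5, Zbtb16, Tsc22d3, Klf9 and Sgk1 are widely used as readouts of this receptor. Mt1 and Mt2 also respond to zinc and to cytokines, and Cdkn1a also responds to p53.

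Sequences near the transcription starts were searched for the known motifs of the receptor and of the metal response. RefSeq windows on GRCm38.p6, running from 250 bases before to 50 bases after a start, were found for 7 of the 8 genes, 15 windows in all. Both strands were searched for the receptor half-site AGAACA, for the spaced core ACANNNTGT, for the full glucocorticoid response palindrome (both half-sites with 3 bases between them, which contains the other motifs) and for the metal response element core, TGCACNC or TGCGCNC. The full palindrome was found in 1 window, at a start inside Sgk1, and in 3 of all 32851 RefSeq windows of the same length (0.00913%). It is shown in capitals in this stretch of the plus strand, chr10:21993671-21993745, which runs from position -219 to position -145 relative to that start.
Sgk1: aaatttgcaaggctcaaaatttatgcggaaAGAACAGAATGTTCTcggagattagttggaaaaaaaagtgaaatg
The metal response element core stood 4 times in the Mt2 window and 3 times in the Mt1 window, and 1.97% of all windows held at least 3. A part of the bases before each start is shown because these neighbours shared their pattern across libraries. The stretches lie on the plus strand at chr8:94172478-94172617 for Mt2 (positions -140 to -1) and chr8:94178949-94179081 for Mt1 (-140 to -8). They hold 2 cores for Mt2 and 1 for Mt1, in capitals, and the other cores of the windows are not within them.
Mt2: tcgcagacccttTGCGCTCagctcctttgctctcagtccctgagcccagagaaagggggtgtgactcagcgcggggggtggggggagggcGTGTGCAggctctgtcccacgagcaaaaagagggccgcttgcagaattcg
Mt1: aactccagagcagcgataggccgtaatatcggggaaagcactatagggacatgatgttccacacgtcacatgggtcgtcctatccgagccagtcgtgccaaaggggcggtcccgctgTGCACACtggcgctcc
The receptor half-site was found in 3 of 6 Sgk1 windows and in 1 of 3 Tsc22d3 windows, and 19.0% of all windows held it. The spaced core was found in 2 Sgk1 windows and in the Mt1 window, and in 6.85% of all windows. The windows of Fkbp5, Klf9 and Cdkn1a held none of these letters, which says nothing of sites elsewhere in those genes.

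Across the series, library totals were 35847386 to 43162557 estimated counts. Of all tested genes, 1923 were called changed, 949 higher and 974 lower. Rxra, the targeted gene, had 501, 471 and 414 CPM in the controls and 700, 522 and 609 CPM in the mutants. These did not overlap, but the gene was not called (log2 fold change 0.40 ± 0.13 (SE), edgeR adjusted p = 0.072), and on TPM its sign turned (-0.20). The genotype label gives a floxed allele with Cre and the design text a point mutant, and the labels do not settle which form of Rxra the mutant livers carry. A gene-level value cannot show it: the targeted gene was not lower in the libraries labelled mutant in CPM, and its TPM values overlapped between groups.

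Of the 8 genes, 4 were called higher in the mutant livers and 4 were not. Fkbp5, Zbtb16, Tsc22d3 and Klf9 were called higher by edgeR's quasi-likelihood test over all genes, while Sgk1, Mt1, Mt2 and Cdkn1a were not called in either direction. The count is thus 4 higher and 0 lower of 8 tested, where 13.5% of all 14286 tested genes were called, 6.64% higher and 6.82% lower. For the same 4 genes every mutant library lay above every control, and 34.9% of all tested genes had groups without overlap in either direction. Nothing is read from these shares, because the list was made with this comparison in view. Levels are given in CPM (counts scaled to a common library size) after TMM scaling, which sets the typical gene equal between groups. The median log2 fold change of the 8 was 0.37, against 0.00 for all tested genes, and the 8 ranged from -0.86 to 3.59.

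Fkbp5 encodes FKBP51, a co-chaperone that binds HSP90 in the receptor complex and lowers the receptor's affinity for hormone, so that its induction is a feedback. The controls, replicates 1 to 3 in order here and throughout, had 24.1, 19.8 and 16.3 CPM, and the mutants, in the same order, had 148, 73.8 and 109 CPM. The lowest mutant library stood at over 3 times the highest control. The log2 fold change was 2.46 ± 0.26 (SE). The gene (ENSMUSG00000024222.17) spans bases 28399094 to 28517527 of chromosome 17 on mm10.

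Zbtb16 encodes PLZF, a zinc finger repressor that is also the lineage factor of natural killer T cells. It had the largest difference of the 8 and the lowest control level. Its values were 1.99, 3.09 and 2.40 CPM in the controls and 39.8, 13.0 and 37.4 CPM in the mutants, a log2 fold change of 3.59 ± 0.42 (SE). Mutant replicate 2 stood well below the other mutants, yet above every control. The gene (ENSMUSG00000066687.5) lies at bases 48654297 to 48836222 of chromosome 9.

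Tsc22d3 encodes GILZ, a leucine zipper protein that mediates anti-inflammatory actions of glucocorticoids. The controls were tightly grouped at 26.6, 28.9 and 29.8 CPM, and the mutants were spread over 60.1, 76.3 and 132 CPM. Here mutant replicate 1 was the lowest and mutant replicate 3 the highest mutant. The log2 fold change was 1.65 ± 0.26 (SE). The gene (ENSMUSG00000031431.13) is on chromosome X, bases 140539528 to 140600659.

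Klf9 encodes a Krüppel-like transcription factor that represses other genes of the response. Per length its mean was 44.8 TPM in the controls, the highest of the 4 called genes, and 53.4 TPM in the mutants, where Tsc22d3 had a mean of 52.6 TPM and was the higher in mutant replicates 2 and 3. On the CPM scale it had 114, 125 and 125 in the controls and 249, 179 and 226 in the mutants, a log2 fold change of 0.84 ± 0.13 (SE). The groups overlapped in TPM, which carries no TMM scaling. The TPM values were 41.8, 45.8 and 46.7 in the controls and 62.9, 41.4 and 55.8 in the mutants, so that mutant replicate 2 lay below all controls. The gene (ENSMUSG00000033863.2) lies at bases 23141226 to 23168134 of chromosome 19.

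**Figure D1:**
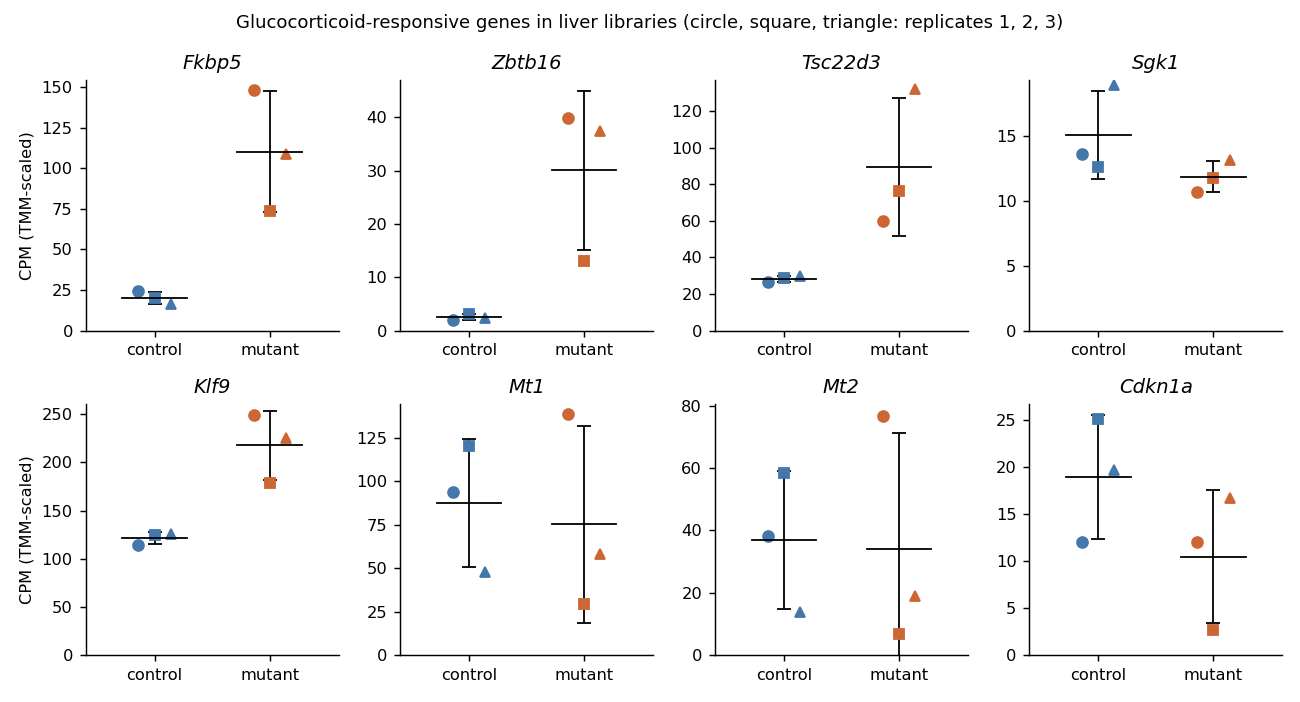
TMM-scaled CPM of the 8 genes in each library, one panel per gene with its own axis from 0. Points are libraries, horizontal lines are group means and bars are 1 SD, cut off at 0. For Fkbp5, Zbtb16, Tsc22d3 and Klf9 all mutant points lie above all control points, and for the other genes the groups overlap.

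Sgk1 encodes a kinase that is activated downstream of insulin and the mineralocorticoid receptor and is a classical early glucocorticoid target. Its values were 13.6, 12.6 and 18.9 CPM in the controls and 10.7, 11.8 and 13.1 CPM in the mutants. The groups overlapped, since control replicate 2 and mutant replicate 3 changed places, and the log2 fold change was -0.34 ± 0.18 (SE). In TPM the groups did not overlap, with 9.17, 8.46 and 13.0 in the controls and 4.96, 5.01 and 5.96 in the mutants. The gene (ENSMUSG00000019970.15) covers bases 21882184 to 21999903 of chromosome 10 and has 6 RefSeq starts, which gene-level values do not separate.

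Cdkn1a encodes the cell cycle inhibitor p21. It had 12.0, 25.1 and 19.7 CPM in the controls and 12.0, 2.70 and 16.7 CPM in the mutants. Mutant replicate 2 stood far below the others, and the log2 fold change of -0.86 ± 0.54 (SE) was -0.41 without that library. The highest mutant library had 6.16 times the level of the lowest, where the median over all tested genes was 1.37. The gene (ENSMUSG00000023067.14) lies at bases 29090976 to 29100727 of chromosome 17.

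Mt1 and Mt2 encode metallothioneins, small cysteine-rich proteins that bind zinc and copper, and had the highest group means of the 8 genes per length. Single libraries departed from that order: Mt2 had 74.3 TPM in mutant replicate 3, where Tsc22d3 had 78.6, and in mutant replicate 2 it lay below both Tsc22d3 and Klf9. They are neighbours on chromosome 8, Mt2 (ENSMUSG00000031762.7) at bases 94172664 to 94173568 and Mt1 (ENSMUSG00000031765.8) at 94179082 to 94180327, with 5513 bases between them. Mt1 had 93.9, 121 and 48.1 CPM in the controls and 139, 29.2 and 57.9 CPM in the mutants. Mt2 had 38.3, 58.3 and 13.9 CPM in the controls and 76.5, 6.83 and 19.0 CPM in the mutants. Neither gene followed the groups. In CPM the highest and the lowest value of each gene were both found among the mutants, while in TPM the highest was in control replicate 2. The log2 fold changes were -0.22 ± 0.52 (SE) for Mt1 and -0.11 ± 0.78 (SE) for Mt2, and each changed sign when control replicate 2 or mutant replicate 2 was left out. Among the mutants, the highest library exceeded the lowest 4.75-fold for Mt1 and 11.2-fold for Mt2. Among the controls these ratios were 2.51 and 4.20, where the median over all tested genes was 1.31.

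The 2 metallothioneins moved together across libraries of both groups. Over the 6 libraries their log2 CPM had a Pearson r of 0.999, and of 12048 other genes with a mean of at least 1 CPM none followed Mt1 more closely than Mt2. The points share libraries and scaling, and how the authors' counting treats reads shared by these similar genes is not given in the sources used here. Their proportions were not fixed. The ratio of Mt1 to Mt2 in TPM was 1.61 in mutant replicate 1 and 1.84 in control replicate 2, where their sum was 797 and 959 TPM. It was 3.80 in mutant replicate 2, where the sum was 120 TPM, and 2.18, 3.07 and 2.71 in control replicate 1, control replicate 3 and mutant replicate 3, with sums of 705, 334 and 275 TPM. The ratio was thus higher in the 3 libraries with lower sums than in the 3 with higher sums. Gm45774, an annotated gene on the other strand of Mt2, held 73.0 estimated counts over all libraries. The strand setting of the counting is not given, so reads of Mt2 and Gm45774 may not have been separated. The same holds for Fkbp5 and AC154912.1, with 807 estimated counts, and for Cdkn1a and AC167363.2, with 21.9.

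**Figure D2:**
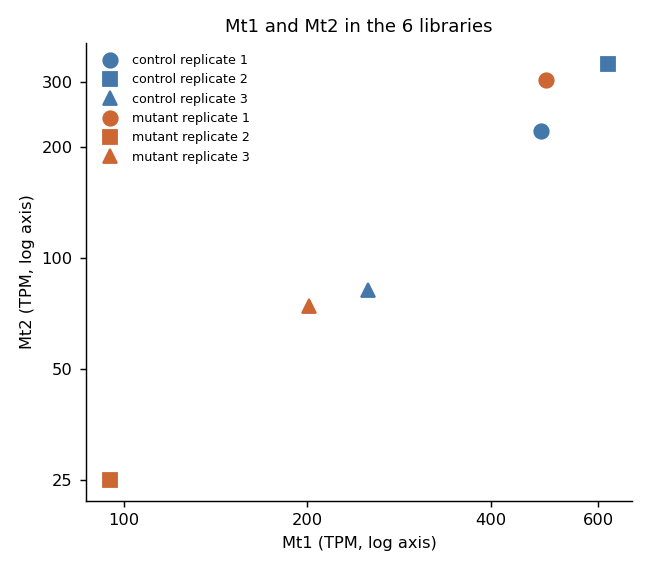
TPM of Mt1 (horizontal) against Mt2 (vertical) in the 6 libraries, both on log axes. Control and mutant libraries lie along one line from mutant replicate 2 at the bottom to control replicate 2 at the top, and the groups are interleaved.

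Among the 4 called genes, Zbtb16 and Klf9 were the most alike. Their log2 CPM had r = 0.995 over the 6 libraries, and r = 0.95 for deviations from the group means. Klf9 ranked 11 among the 12048 genes in likeness to Zbtb16, and the 3 genes ahead of all others were Ass1, a urea cycle enzyme (r = 0.999), the translation factor subunit Eif2b1 (r = 0.999) and the chaperone Calr (r = 0.997). The 3 genes most like Klf9 were Sds (serine dehydratase, r = 0.998), Zbtb16 and Got2 (mitochondrial aspartate aminotransferase, r = 0.994). For Fkbp5 the 3 were St3gal5, a ganglioside-forming sialyltransferase (r = 0.998), Etnk2, an ethanolamine kinase (r = 0.997), and the fatty acid hydroxylase Cyp4a14 (r = 0.997). Tsc22d3 stood apart from the other called genes within groups, with r = -0.26 to Fkbp5, 0.19 to Zbtb16 and -0.02 to Klf9 for deviations from the group means. Its 3 most alike genes were Cfap97 (r = 0.995), the endoplasmic reticulum stress gene Herpud1 (r = 0.993) and Tigd5 (r = 0.993). Likeness within groups was not limited to the called genes. For deviations from the group means, Cdkn1a had r = 0.97 to Zbtb16 and 0.90 to Klf9. Fkbp5 had r = 0.92 to Mt1 and 0.91 to Mt2. Sgk1 had r = -0.49 to Fkbp5, -0.08 to Zbtb16 and -0.01 to Klf9. The highest r over all 6 libraries was similar for genes not called, 0.998 for Cdkn1a with Lztr1 and 0.995 for Sgk1 with Zfp626. All these r describe 6 libraries in 2 groups that share their scaling.

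Mutant replicate 2 was the lowest mutant library for Fkbp5, Zbtb16 and Klf9, and also for Mt1, Mt2 and Cdkn1a. It was not the lowest for Tsc22d3 or Sgk1, for which mutant replicate 1 was. Of all 949 genes called higher in the mutants, 310 (32.7%) were lowest in mutant replicate 2. Without mutant replicate 2 the log2 fold changes of the 4 called genes ranged from 0.96 for Klf9 to 3.94 for Zbtb16, and all 4 were still called.

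**Figure D3:**
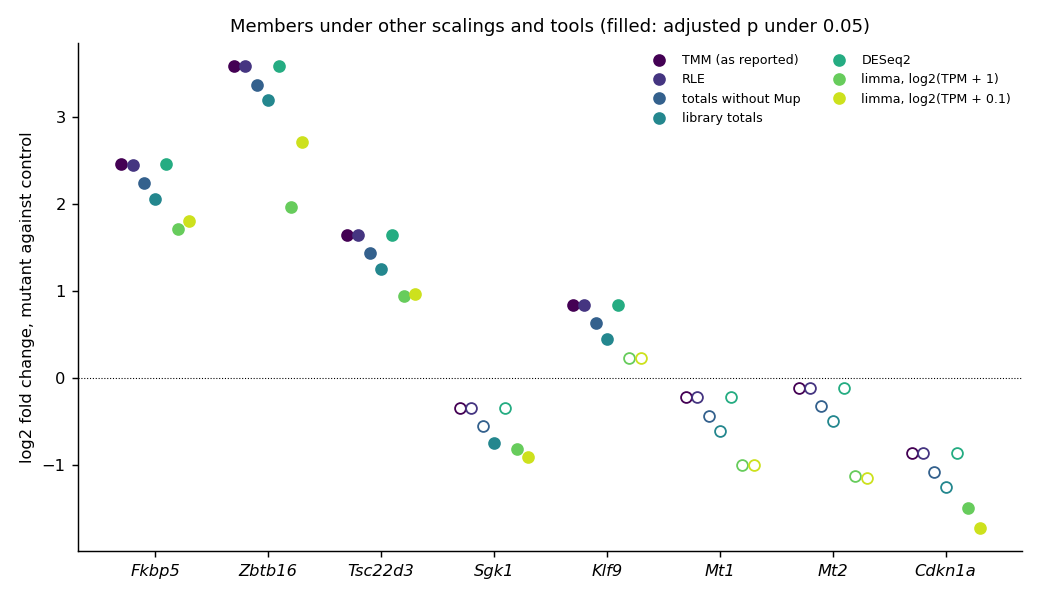
Log2 fold change of each gene (vertical) under 7 scalings or tools. Filled points passed an adjusted p of 0.05 over all genes tested in that fit. Fkbp5, Zbtb16 and Tsc22d3 are filled throughout, Klf9 in all but the TPM fits, Sgk1 at library totals and in the TPM fits, and Cdkn1a in the TPM fits.

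The level at which the typical gene is set matters for these genes. The Mup genes, which encode abundant urinary proteins, took 1.85 to 3.09% of the counts in the controls and 12.8 to 16.9% in the mutants. When library totals were used, the median of all tested genes moved to -0.40 (log2) and 33.6% of them were called. For limma on log2(TPM + 1) the median was -0.48 and 65.5% were called, most of them lower. Against those shifts, Fkbp5 (2.06 and 1.72), Zbtb16 (3.20 and 1.96) and Tsc22d3 (1.25 and 0.95) stayed higher and were called under both. Klf9 was called at library totals (0.45) but not on TPM (0.23). Sgk1 was called lower at library totals (-0.74) and on TPM (-0.81), and Cdkn1a was called lower on TPM (-1.49), though not in the unfiltered TPM fit.

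Other genes induced by glucocorticoids in liver were taken from a list of 30, of which 29 were tested. Of these, 9 rose, 2 fell and 18 did not pass, and the median log2 fold change was 0.19, against 0.00 for all tested genes. Over all tested genes 6.64% were called higher and 6.82% lower, shares that also stand behind the lists that follow. The list was drawn up with earlier results of these data known, so its direction is not independent evidence. Of the 4 with the smallest p, Cps1, which makes carbamoyl phosphate for the urea cycle, rose from 1069 ± 25.9 to 4803 ± 1483 CPM (SD, n = 3 each), a log2 fold change of 2.17 ± 0.22 (SE, adjusted p = 9.5e-04). Pck1, which commits carbon to glucose synthesis, rose by 1.88 ± 0.22 (SE, adjusted p = 0.0017). Sds rose from 26.1, 36.9 and 33.8 CPM in the controls to 254, 86.4 and 184 CPM in the mutants (adjusted p = 0.0041). Lcn2, which encodes lipocalin 2 and responds to inflammation as well, fell by 2.37 ± 0.34 on the log2 scale (SE, adjusted p = 0.0042).

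The other genes that rose were Per1, Tat, Tdo2, Lpin1, Angptl4 and Errfi1. Per1, a clock repressor with a known receptor site, had 11.6, 11.8 and 11.6 CPM in the controls and 46.5, 22.3 and 38.1 CPM in the mutants (log2 fold change 1.61 ± 0.24 (SE), adjusted p = 0.0049). Tat, tyrosine aminotransferase and a textbook target, had 402, 400.3 and 320 CPM in the controls and 1543, 599 and 1801 CPM in the mutants. Its call (adjusted p = 0.014) was lost without control replicate 3 (adjusted p = 0.053). Tdo2, tryptophan dioxygenase, rose by 0.92, a call that was lost in the limma fits on TPM (0.33). Lpin1, a phosphatidate phosphatase, rose by 2.29, Angptl4, an inhibitor of lipoprotein lipase, by 1.01, and Errfi1, an inhibitor of EGF receptor signalling, by 1.34, a call lost without mutant replicate 1. Of these 9 genes, 8 were lowest among the mutants in mutant replicate 2, as were 3 of the 4 called genes above.

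Several well-known targets did not rise. Rgs2, a regulator of G protein signalling, fell by 1.01 (adjusted p = 0.045), a call that no fit with a library left out kept except that without control replicate 2. Dusp1, the phosphatase that switches off MAP kinases, had 14.7, 17.7 and 14.8 CPM in the controls and 7.43, 9.25 and 13.7 CPM in the mutants, and did not pass (adjusted p = 0.097). Pdk4, a kinase that restrains pyruvate oxidation, averaged 20.9 ± 3.95 CPM across controls against 6.68 ± 5.59 across mutants (SD, n = 3 each; edgeR adjusted p = 0.058). G6pc, Igfbp1, Nfkbia, Ddit4, Irs2 and Txnip had log2 fold changes between -0.27 and 0.23 and did not pass. Cebpd (0.75, edgeR adjusted p = 0.078) and Cebpb (0.64, adjusted p = 0.089) pointed higher and did not pass. Rhob pointed lower (-0.43, adjusted p = 0.059) and did not pass either. At library totals 9 of the 29 were called higher and 9 lower. Of all 14286 tested genes, 293 were called higher and 4508 lower there. With limma on log2(TPM + 1) 8 of the list were called higher and 12 lower. Of all 11567 genes in that fit, 217 were called higher and 7362 lower. In the unfiltered TPM fit 4 of 30 were called higher and 9 lower, where 190 of all 22796 genes were called higher and 6391 lower. In that limma fit Per1 (adjusted p = 0.069), Tat (0.13), Angptl4 (0.094) and Errfi1 (0.11) were not called.

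**Figure D4:**
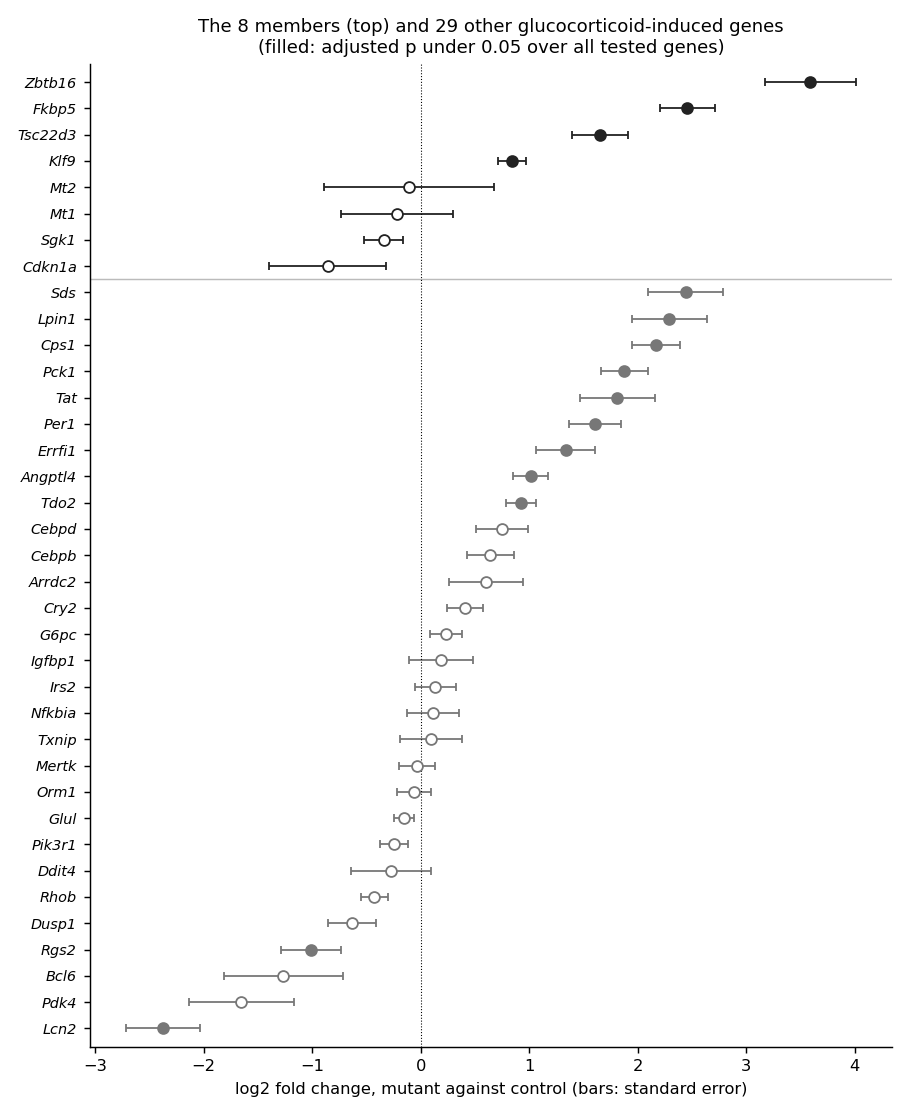
Log2 fold change, mutant against control, with its standard error for the 8 genes (above the line) and the 29 other tested glucocorticoid-induced genes (below it). Filled points passed an adjusted p of 0.05 over all tested genes. The values run from 3.59 for Zbtb16 to -2.37 for Lcn2.

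The receptor itself did not pass. Nr3c1 had 76.3, 66.8 and 83.0 CPM in the controls and 77.5, 70.1 and 74.8 CPM in the mutants, a log2 fold change of -0.02 ± 0.11 (SE, adjusted p = 0.92). In TPM the groups did not overlap for Nr3c1, with 22.1, 19.3 and 24.5 in the controls and 15.5, 12.8 and 14.6 in the mutants. Of 10 genes of receptors and chaperones, 4 rose, 1 fell and 5 did not pass. Stip1, which links HSP70 to HSP90, rose from 44.1, 45.5 and 46.2 to 78.9, 89.4 and 72.4 CPM (adjusted p = 0.0026), and Hspa8, the constitutive HSP70, rose by 0.78 (adjusted p = 0.0102), but neither was called on TPM (0.22 and 0.18), nor Hspa8 at library totals (0.38, adjusted p = 0.057). The HSP90 genes Hsp90ab1 (0.42) and Hsp90aa1 (0.57) also rose, but were near 0 on TPM with the sign turned (-0.18 and -0.04), and each call was lost at library totals, with or without Mup genes, and when any one control, mutant replicate 1 or mutant replicate 2 was left out. Nr3c2, the mineralocorticoid receptor, which also binds glucocorticoids, fell by 0.50 (adjusted p = 0.036), a call lost on leaving out any library except control replicate 2. Fkbp4, the relative of Fkbp5 that promotes receptor transport, had a log2 fold change of 0.37 ± 0.15 (SE) and did not pass.

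Genes that set the supply of active hormone in the liver were mostly not called. Hsd11b1, which regenerates active corticosterone inside hepatocytes, averaged 348 ± 22.4 CPM across controls against 349 ± 50.6 across mutants (SD, n = 3 each, log2 fold change 0.01 ± 0.12 (SE), adjusted p = 0.98). In TPM Hsd11b1 did not overlap, with 425, 382 and 437 in the controls and 243, 298 and 282 in the mutants. Serpina6, the corticosteroid-binding globulin of plasma, did not pass (0.29 ± 0.21, SE). Srd5a1, a steroid reductase that inactivates glucocorticoids, rose by 0.99 ± 0.17 (SE, adjusted p = 0.0096), and was not called on TPM (0.37). Abcb1a, an efflux pump that carries steroids, fell by 2.05 ± 0.22 (SE, adjusted p = 0.0013). Hsd11b2, the inactivating enzyme of kidney, was at 0 counts in all 6 libraries. Of the 7 tested genes 1 rose, 1 fell and 5 did not pass.

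Relatives of the 8 genes were called in both directions. Of 16 tested relatives 2 rose, 4 fell and 10 did not pass. Klf15, a Krüppel-like factor induced by glucocorticoids and fasting, rose from 70.0 ± 4.81 to 172 ± 36.4 CPM (SD, n = 3 each, adjusted p = 0.0019), and Klf13 rose by 0.98, a call lost at library totals, on TPM and without control replicate 1 or 2 or mutant replicate 1. Klf6, an injury-responsive factor of the same family, fell from 17.9, 19.1 and 19.7 to 5.17, 4.96 and 5.98 CPM (adjusted p = 3.3e-04). Tsc22d1, a relative of Tsc22d3, fell by 1.02 ± 0.17 (SE, adjusted p = 0.0072). Mt3 and Mt4, the other metallothioneins, were at 0 counts in all libraries.

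The other known inputs of Mt1, Mt2, Cdkn1a and Sgk1 were examined through their own gene lists. Of 11 tested genes of zinc handling 0 were called by edgeR with TMM and 0 by DESeq2. Without the filter edgeR called 1 lower, where it called 1240 of all 22732 genes lower. At library totals it called 4 lower, where it called 4508 of all 14286 lower. Limma on log2(TPM + 1) called 7 of 10 lower, where it called 7362 of all 11567 lower. In the TMM fit 1 of the 11 zinc genes had an unadjusted p under 0.05, the metal-sensing factor Mtf1 (0.37 ± 0.15, SE). Of 18 p53 targets 6 fell, 0 rose and 12 did not pass, with a median log2 fold change of -0.66, where 6.82% of all tested genes were called lower. Bax and Btg2, which are among the 6, lost their calls in most fits with a library left out. Gdf15, a stress hormone, fell from 18.0, 27.0 and 12.3 to 2.50, 3.64 and 2.48 CPM (adjusted p = 0.0015), and the kinase Plk2 fell by 1.21, Ccng1, a cyclin of the p53 loop, by 0.66 and Zmat3, an RNA-binding protein, by 0.92. Of 12 acute phase genes 1 rose, 2 fell and 9 did not pass. Hamp, which encodes the iron hormone hepcidin, rose by 3.06 ± 0.46 (SE, adjusted p = 0.0049). Orm2, an acid glycoprotein gene, fell by 2.36, like Lcn2, while Orm3 did not pass (-1.42 ± 0.52, SE).

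Of 15 clock genes 3 rose, 0 fell and 12 did not pass. Beside Per1 these were Ciart, a repressor of the clock (3.60, 1.61 and 0.926 CPM in the controls and 13.1, 12.4 and 8.03 CPM in the mutants, a call lost without control replicate 2), and Tef, whose increase of 0.60 was near 0 on TPM (0.02) and not called there, at library totals or without control replicate 2 or 3 or mutant replicate 1 or 2. Nr1d2 did not pass (0.37 ± 0.14, SE), and the log2 fold changes of Arntl, Nr1d1 and Per2 were -0.54 ± 0.41, 0.05 ± 0.17 and 0.20 ± 0.24 (SE). The part of clock phase in the values of the 8 genes was not tested. Among 6 tested partners of SGK1, 3 rose and 1 fell: the sodium channel subunit Scnn1a rose by 1.33 ± 0.23 (SE), the transcription factors Foxo3 and Foxo1 by 0.77 and 0.81, and Ndrg1, a substrate of the kinase, fell by 1.26 ± 0.33 (SE). The Scnn1a call was lost on TPM, the Foxo calls at library totals, on TPM and without any one of control replicates 2 and 3 and mutant replicate 1 (Foxo1 also without control replicate 1 or mutant replicate 3), and the Ndrg1 call without control replicate 2 or 3 or mutant replicate 1 or 2.

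Other cell types of the liver can carry these transcripts, Zbtb16 in natural killer T cells and Tsc22d3 in most leukocytes. In bulk RNA, fewer cells of a type and less RNA per cell cannot be told apart. The 14 lymphocyte markers summed to 11.9 to 15.8 TPM in the controls and 5.23 to 7.74 TPM in the mutants. Of the 13 tested, 1 rose (Cd4) and 1 fell (Ptprc). Ptprc is shared with other leukocytes, and its mean was 4.97 TPM in the controls and 1.28 TPM in the mutants. Cd3e, which defines T cells, averaged 0.473 ± 0.157 CPM across controls against 0.338 ± 0.0913 across mutants (SD, n = 3 each). Macrophage markers fell in 3 of 9 cases (280 to 367 TPM summed in the controls, 78.4 to 159 in the mutants), endothelial markers in 2 of 8 (84.9 to 160 and 46.6 to 69.5), and stellate cell and fibroblast markers in 6 of 8 (196 to 220 and 66.3 to 73.8), and none of these rose. Of 6 adipocyte markers (41.9 to 67.8 and 1.56 to 2.90) only 2, Cfd and Plin4, were tested, and both fell. Adipoq, Plin1, Lep and Retn were at or near 0 in all libraries. Hepatocyte markers summed to 74288 to 86436 TPM in the controls and 59961 to 67534 TPM in the mutants, and 5 of 7 rose after TMM scaling. These sums carry no TMM scaling. The part of these cell types in the values of the 8 genes and of the p53 targets was not tested.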

How the data were processed

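Poly(A)-enriched liver RNA was sequenced as 6 libraries, per the labels. The submitters' processing notes name cutadapt, STAR and the build mm10. How reads were counted, with which annotation and strand setting, is not given in the sources used here. Deposited by the authors were estimated counts, of which none above 0 was whole, and TPM for 55487 genes. Columns were matched by sample titles, and 0 were left over.

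Estimated counts were rounded to whole numbers. The test was that of edgeR 4.0.16 under R 4.3.3 (filterByExpr, TMM, quasi-likelihood F-test on group, Benjamini-Hochberg over 14286 genes, called at an adjusted p under 0.05). SE is the log2 fold change divided by the root of F. For correlations, log2 CPM was taken (prior count 2). The procedure was also run on simulated counts with changes set at random in both directions. Those counts did not carry the shift in Mup genes, so that run does not check the choice of scaling. Alternatives were RLE factors, library totals with and without Mup genes, no filter, DESeq2 1.42.0, a block on replicate number, leaving out each library in turn, and limma 3.58.1 on log2(TPM + 1) or log2(TPM + 0.1) with a TPM of at least 1 in at least 3 libraries, or unfiltered. Summing Mt1 and Mt2 was added after seeing the data.

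The members and the 15 lists (178 symbols, 1 not found) were chosen with earlier results of these data known. Named were the 8 members, Rxra, from each list up to 4 genes with the smallest unadjusted p under 0.05, and the 3 genes most like a member. Other genes of the first list, called or not, and further receptor, hormone supply, clock and marker genes, were named after their values were seen. Gene coordinates are from GENCODE M21 (99.4% of identifiers found), promoter sequences from RefSeq GRCm38.p6.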

Additional observations from a re-analysis of the deposited data

How the results depend on the processing

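The count of 4 called members was 4 or 5 under all 15 alternatives that were fitted to them, but not always for the same genes: library totals gave 4 higher and 1 lower, the filtered TPM fits 3 higher and 2 lower, and the unfiltered TPM fit 3 higher and 1 lower. Fkbp5, Zbtb16 and Tsc22d3 were called higher in each, over log2 ranges of 1.72 to 2.67, 1.96 to 3.94 and 0.95 to 1.87. Klf9 was called in 12 of 15 and lost in the 3 limma fits on TPM.

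The count of 1923 called genes was 4801 at library totals, 7579 and 7526 with limma on log2(TPM + 1) and log2(TPM + 0.1), 6581 without a filter on TPM, and 882 to 1514 with a library left out. It was 1927 with RLE factors, 2373 at library totals without Mup genes, 2322 with edgeR without the filter and 2607 with DESeq2. Of the other glucocorticoid-induced genes, 11 were called, 18 at library totals, 20 in both filtered TPM fits, 13 in the unfiltered one, and 10 to 13 with a library left out. EdgeR without the filter called 16, 11 higher and 5 lower, and DESeq2 called 15, 11 higher and 4 lower. Library totals without Mup genes gave 16, 9 higher and 7 lower. With the replicate number as a block, 1558 genes and the same number of members (4) were called. Same-numbered libraries did not deviate together (r = -0.00, 0.01 and 0.07), so the numbers were not taken to pair libraries.

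The log2 fold change of Mt1 was 0.09 without control replicate 2 and 0.16 without mutant replicate 2. Mt2 was 0.39, 0.37 and 0.18 without control replicate 2, mutant replicate 2 and mutant replicate 3, against a lowest value of -1.52, and Mt1 reached -1.01. Summed as 1 gene, an alternative chosen after seeing the data, the pair gave -0.18. Rxra turned to -0.20 in the 3 TPM fits, Hsp90aa1 to -0.045 and Hsp90ab1 to -0.18. The cause was not tested. Each member had at least 87.3 estimated counts in every library, and the effect of depth on the calls was not tested.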
